A study of Mus musculus with 24 samples.

Results

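The cytosolic chaperonin, known as TCP-1 ring complex or CCT, was described here through the mRNAs of its 8 subunits in mouse liver. The subunits were Tcp1 (alpha), Cct2 (beta), Cct3 (gamma), Cct4 (delta), Cct5 (epsilon), Cct6a (zeta), Cct7 (eta) and Cct8 (theta). Every probe set annotated to one of these genes was taken, which gave 13 of the 12422 probe sets with values on the array and 8 of the 8251 genes named by a single symbol. Probe sets were taken by annotation and not by their values, while the genes were chosen with earlier results of these data known. Where a gene had several probe sets, the probe set with the highest mean log2 intensity stood for it.

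The chaperonin is a pair of stacked rings in which each subunit type holds a fixed place, so that a complete ring needs all of its subunit types. It encloses newly made proteins and folds them with the energy of ATP, and actin and tubulin are its best known clients. In liver it serves the housekeeping needs of cells with a high rate of protein synthesis, and it is counted among the chaperones whose genes heat shock factors can bind.

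Whole liver RNA of 24 male mice, 1 mouse per Affymetrix U74Av2 array, was compared in 8 groups of 3 mice aged 9 to 12 weeks on a mixed SV129/C57BL/6 background. Wild-type mice and PPARα-null mice, which lack a working copy of PPARα, a nuclear receptor that fatty acids and fibrate-like drugs bind, ate control diet or a diet with 500 ppm of the PPARα agonist WY-14,643 (WY) for 1 week. Mice of each strain and diet then stayed at room temperature or were given a heat shock (HS) of 42 °C for 40 min, and per the study's methods livers were taken 4 h later. The groups of each strain are called control, HS, WY and WY+HS, and the mice keep the numbers 1 to 24 of their labels. The receptor is missing from every cell of a PPARα-null mouse throughout its life, not from hepatocytes alone. RNA came from whole liver, so fewer cells of a type and less RNA per cell cannot be told apart.

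Intensities were quantile normalized and values below a floor of 15.7 were raised to it, as 42.9% of all values were. The deposited array medians ranged from 15.2 to 40.5, and the number of arrays, 3 per group, limits the precision. Ppara itself read 181 to 357 in the 12 wild-type mice and 103 to 210 in the 12 null mice, and wild-type HS mouse 5 lay within the null range. Whether its probe set covers the disrupted part of the gene was not stated in the sources used here. Of 18 measured genes known to be induced by PPARα, 17 rose with WY in wild-type mice and 0 passed the test with WY in null mice. Summed intensity of 4 skeletal muscle markers was 895 in wild-type control mouse 1, 804 in null HS mouse 16 and 657 in null HS mouse 17, against 63.0 to 151 in the other 21 mice. Of 6 hepatocyte markers none was at the floor, and their summed intensity ran from 31615 to 36832 over all mice.

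The subunits were measured unequally well. Cct4, Cct5, Cct6a, Cct7 and Cct8 read between 126 and 527 in every mouse, and Cct3 read between 102 and 247. Tcp1, the founding member of the family, read 18.0 to 90.4, and Cct2 read 15.7 to 63.0 with wild-type WY+HS mouse 12 at the floor. Another probe set of Tcp1 and another of Cct6a were at the floor in all 24 mice and gave no measurement. Levels of different subunits were not set against each other as amounts of RNA, because each probe set binds with its own strength.

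Cct3 had 3 probe sets above the floor. They are called here by their suffixes. The means over all arrays of the _f_at and the _at probe set were nearly tied, at 7.32 and 7.31 on the log2 scale, and the _f_at probe set stood for the gene. The third, an _s_at probe set, carries the symbol Cct3 in the platform annotation, while the array maker's own description names its target as an Eph-related receptor tyrosine kinase, so its identity is uncertain. Across the 24 arrays the _f_at and _at probe sets correlated with r = 0.62, given as a description, and with group means removed the correlation was -0.10. The _s_at probe set correlated more closely with the _at probe set, with r = 0.82 and 0.37 with group means removed. With the _f_at probe set its r was 0.36, and -0.08 with group means removed. The probe set standing for Cct3 was thus the one least like the other 2. Probe sets with the suffix _f_at can bind several related transcripts. Cct5 also had a dimmer probe set, read at 39.3 to 119, and in it WY changed nothing past the test in wild-type mice (log2 -0.01 ± 0.20).

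Promoter windows of 300 bases, from 250 bases before to 50 bases after a transcript start, were available from RefSeq (build GRCm38.p6) for 7 of the 8 genes in 9 windows. Cct4 was not matched. The 200 bases before the start of Cct3, Cct6a and Cct7 are shown because these subunits were the ones whose response to WY differed between the strains when averaged over HS, as given further on. Capitals mark the CCAAT box, read on either strand as CCAAT or ATTGG.
Cct3, chr3:88296935-88297134, plus strand: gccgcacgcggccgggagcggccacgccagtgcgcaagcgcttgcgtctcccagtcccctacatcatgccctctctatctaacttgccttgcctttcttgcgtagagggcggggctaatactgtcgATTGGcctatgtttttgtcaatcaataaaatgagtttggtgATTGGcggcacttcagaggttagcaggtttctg
Cct6a, chr5:129787156-129787355, plus strand: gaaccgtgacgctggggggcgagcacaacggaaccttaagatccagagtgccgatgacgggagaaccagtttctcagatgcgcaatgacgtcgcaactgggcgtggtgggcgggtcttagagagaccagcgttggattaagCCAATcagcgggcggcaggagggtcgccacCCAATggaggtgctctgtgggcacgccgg
Cct7, chr6:85451305-85451504, plus strand: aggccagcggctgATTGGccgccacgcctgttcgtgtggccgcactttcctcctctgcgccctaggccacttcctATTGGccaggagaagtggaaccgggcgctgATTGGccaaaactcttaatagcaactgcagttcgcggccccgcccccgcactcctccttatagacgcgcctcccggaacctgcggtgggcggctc

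The letters CCAAT stood in 4 of the 9 windows, those of Cct3, Cct6a, Cct7 and Tcp1, and in 37.4% of all 32851 windows of the same length. A GC box, GGGCGG on either strand, was found in 8 of the 9 windows and in 35.7% of all windows. The share of G and C letters was 47.3% in a Cct5 window and 55.3% to 67.7% in the others. Its median over all windows was 52.7%, and its part in the GC box count was not tested. Of the paired units of a heat shock element, GAANNTTC was found in 1 window, of Cct2, and TTCNNGAA in 2 windows, of Cct5 and Cct6a, against 7.86% and 8.52% of all windows. The 3-unit form GAANNTTCNNGAA, which contains both pairs and reads TTCNNGAANNTTC on the opposite strand, and the direct repeat AGGTCANAGGTCA bound by PPARα were in none of the 9 windows, and in 0.603% and 0.0396% of all windows. These are descriptions of letters in a short window.

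Of the 8 subunits, 3 rose with WY in wild-type mice, namely Cct3, Cct5 and Cct6a, and none fell. A rise with an adjusted p under 0.05 was found for 5.59% of all 12422 probe sets. The log2 changes of all 8 subunits were above 0, from 0.12 to 0.88 with a median of 0.39, beside a median of 0 over all 8251 genes, and they stayed above 0 with arrays set to a common median and with arrays not scaled. Unadjusted p was under 0.05 for 6 of the 8 subunits and for 19.5% of all probe sets.

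In wild-type control mice Cct3 (_f_at) read 144, 120 and 102, and with WY it read 210, 235 and 221. In null mice it read 145, 161 and 148 in control and 142, 141 and 145 with WY. All wild-type WY mice lay above all wild-type controls, whereas the null WY mice lay just below the null controls, a separation that 2.66% of all probe sets had in that comparison. The wild-type change was 0.88 ± 0.15 (log2, SE; 1.84-fold; adjusted p = 0.00086 by limma), and the other probe sets gave 1.19 ± 0.19 (_at, adjusted p = 0.00038) and 0.86 ± 0.20 (_s_at, adjusted p = 0.010).

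The only Cct6a probe set above the floor also carries the suffix _f_at, so no second probe set could check it. Cct6a, whose product is the zeta subunit, read 194, 210 and 126 in wild-type controls and 275, 231 and 281 with WY. The groups did not overlap, and the log2 change was 0.60 ± 0.19 (1.51-fold, adjusted p = 0.049). Cct5 read 332, 357 and 320 in controls and 512, 401 and 475 with WY. These groups did not overlap either, and the log2 change was 0.45 ± 0.13 (1.37-fold, adjusted p = 0.032). Cct8 also separated the groups, at 213, 243 and 224 against 257, 270 and 256, but its log2 change of 0.21 ± 0.09 did not pass the test (adjusted p = 0.21). Groups that did not overlap, with WY higher, were thus seen for 4 of 8 subunits and for 11.5% of all probe sets.

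Cct7 and Cct4 had log2 changes of 0.42 ± 0.16 (adjusted p = 0.13) and 0.35 ± 0.15 (adjusted p = 0.17), with overlapping groups. The paper, from its own processing of the arrays, lists Cct3, Cct4, Cct7 and Cct8 as increased by WY in wild-type mice. Tcp1 and Cct2 could not be resolved. With WY, Tcp1 read 51.6, 18.0 and 62.1 against 29.9, 40.7 and 36.8 in controls, and the 95% interval of its log2 change ran from -0.77 to 1.01. The interval of Cct2 ran from -0.77 to 1.04. The count of calls fell to 1, Cct3, without control mouse 1 or 3 or WY mouse 7 or 9. It was also 1, Cct3, with a common median, with the methods' test on the values normalized here, or with the compared arrays alone. Cct6a also missed the threshold with the floor at the 5th percentile (adjusted p = 0.054) and with trend and robust moderation (0.057). Control mouse 1 was also the one with muscle markers, whose part in the result was not tested.

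WY and HS together raised 5 of the 8 subunits over control in wild-type mice, adding Cct7 and Cct8 to the 3 above, where 5.23% of all probe sets rose. Cct6a reached 322, 286 and 351, all above the controls, a log2 change of 0.88 ± 0.19 (1.84-fold, adjusted p = 0.0040). Cct3 reached 176, 217 and 247, a log2 change of 0.81 ± 0.15 (1.75-fold, adjusted p = 0.0016). Cct7 read 284, 254 and 289 against 202, 143 and 177 in controls, a log2 change of 0.68 ± 0.16 (1.60-fold, adjusted p = 0.011). Cct5 rose by 0.50 ± 0.13 (adjusted p = 0.017) and Cct8 by 0.30 ± 0.09 (adjusted p = 0.045). The dimmer probe set of Cct5 gave 0.26 ± 0.20 and did not pass (adjusted p = 0.57). The groups of all these 5 subunits did not overlap, as was the case, with WY+HS higher, for 10.3% of all probe sets. Cct4 (0.16 ± 0.15), Tcp1 (0.54 ± 0.42) and Cct2 (-0.27 ± 0.43) did not pass the test, and Cct4 changed sign with arrays not scaled. The count of 5 fell to 3, in each case Cct3, Cct6a and Cct7, without control mouse 1 or 3 or WY+HS mouse 12 and with a common median. Cct8 missed the threshold with trend and robust moderation (adjusted p = 0.077) and with dim probe sets filtered out (0.085). The count fell to 2 with the methods' test (Cct3 and Cct6a), to 1 with the compared arrays alone (Cct5) and to 0 with arrays not scaled.

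Set against HS alone, WY+HS raised 1 subunit, Cct3, with a log2 change of 0.61 ± 0.15 (adjusted p = 0.014), where 4.8% of all probe sets rose, and it did not pass with arrays not scaled or without HS mouse 4 or 6 or WY+HS mouse 12. Without HS mouse 5 the count was 3, with Cct6a and Cct8. Cct6a also separated these groups, as 9.25% of probe sets did with WY+HS higher, but its 0.58 ± 0.19 missed the threshold (adjusted p = 0.059) and was below 0 with arrays not scaled. Against WY alone, 0 of the 8 subunits passed, 0 had an unadjusted p under 0.05, and 0.427% of all probe sets passed in either direction. With arrays not scaled all 8 subunits were below 0 in that comparison, with a median of -0.58 where 5 of 8 had been above 0, and Cct3 and Cct4 passed. Cct6a was higher in every WY+HS mouse than in every WY mouse, a separation that 4.46% of probe sets had. The WY by HS interaction in wild-type mice was not past the threshold for any subunit, with log2 values from -0.39 to 0.01, and 0.105% of all probe sets passed. With arrays not scaled 5 subunits passed that interaction, in a setting where the median of genes above the floor itself moved by -1.10. Averaged over the 2 heat conditions, WY raised the same 5 subunits in wild-type mice as WY+HS did, and 7.89% of all probe sets: Cct3 by 0.75 ± 0.11 (adjusted p = 7.5e-05), Cct6a by 0.59 ± 0.13 and the others by 0.21 to 0.35. In this average the dimmer probe set of Cct5 gave -0.03 ± 0.14 and did not pass. The average shares its arrays with the comparisons above.

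HS alone moved no subunit past the test in wild-type mice, where 5 probe sets of the whole array passed (0.0403%). Of the 8 log2 changes 7 were above 0, with a median of 0.25, and 2 subunits had an unadjusted p under 0.05, a level reached by 5.35% of all probe sets. These were Cct5, at 469, 497 and 366 against 332, 357 and 320 in controls (0.39 ± 0.13, adjusted p = 0.61), and Cct7, at 207, 301 and 185 against 202, 143 and 177 (0.39 ± 0.16, adjusted p = 0.80). Cct5 separated the groups and Cct7 did not, and groups with HS higher did not overlap for 4.17% of all probe sets. The _at probe set of Cct3 gave 0.61 ± 0.19 (adjusted p = 0.55) where the _f_at probe set gave 0.19 ± 0.15.

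In null mice none of the 8 subunits, by the probe set standing for it, passed the test with HS, WY or WY+HS. With HS, 7.07% of all probe sets passed in either direction, and unadjusted p was under 0.05 for 2 of the 8 subunits, Cct4 and Cct7, and for 18% of all probe sets. Cct4 read 270, 270 and 232 with HS and 363, 304 and 332 in null controls, lower in every mouse, with a log2 change of -0.37 ± 0.15 (adjusted p = 0.17). Cct7 read 273, 298 and 295 against 257, 187 and 213, higher in every mouse, with 0.41 ± 0.16 (adjusted p = 0.17). Tcp1 was also lower in every HS mouse, at 35.5, 22.7 and 34.1 against 67.4, 51.3 and 39.8. Non-overlap with HS lower, seen for Tcp1 and Cct4, held for 8.75% of all probe sets and non-overlap with HS higher, seen for Cct7, for 8.86%. With a common median Cct4 passed the test, at -0.49 (adjusted p = 0.040).

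The uncertain _s_at probe set fell with HS in null mice, from 133, 115 and 92.1 to 52.6, 52.9 and 87.2 (log2 -0.84 ± 0.20, adjusted p = 0.019), where 3.89% of all probe sets fell. Mice 16 and 17, the pair with the lowest values, were also those with high muscle markers. Of the stellate cell and fibroblast markers 3 of 5 rose in the same comparison, where 7.07% of all probe sets passed in either direction. Their summed intensity was 552 to 684 with HS and 358 to 407 in null controls. These markers include Des and Acta2, which the paper lists among muscle contraction genes that increased with HS in null mice. Of 5 Kupffer cell and 4 endothelial markers 1 each rose, and the summed intensities did not overlap either, at 412 to 438 against 252 to 393 and at 185 to 210 against 123 to 166. Their part in the result was not tested. The 2 other Cct3 probe sets did not pass there, with 0.24 ± 0.15 (_f_at) and -0.17 ± 0.19 (_at).

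With WY in null mice the log2 changes of the subunits lay between -0.37 and 0.20, and with WY+HS between -0.47 and 0.06. In those comparisons 0.00805% and 0.0161% of all probe sets passed, in either direction, and unadjusted p was under 0.05 for 0 of the 8 subunits in each. For the 3 subunits that rose with WY in wild-type mice, the 95% intervals of the log2 change in null mice were -0.41 to 0.24 (Cct3), -0.25 to 0.30 (Cct5) and -0.52 to 0.27 (Cct6a). Signs of these small changes depended on the scaling. WY+HS against HS in null mice gave 0 calls as well, where 11.2% of all probe sets passed in either direction, and 2 subunits and 21.7% of all probe sets had an unadjusted p under 0.05. Without HS mouse 18, Cct3 passed. The _s_at probe set of Cct3 passed with all mice, higher with WY+HS by 1.04 ± 0.20 (adjusted p = 0.0034), while its _f_at probe set gave -0.33 ± 0.15 and its _at probe set 0.28 ± 0.19.

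**Figure D1:**
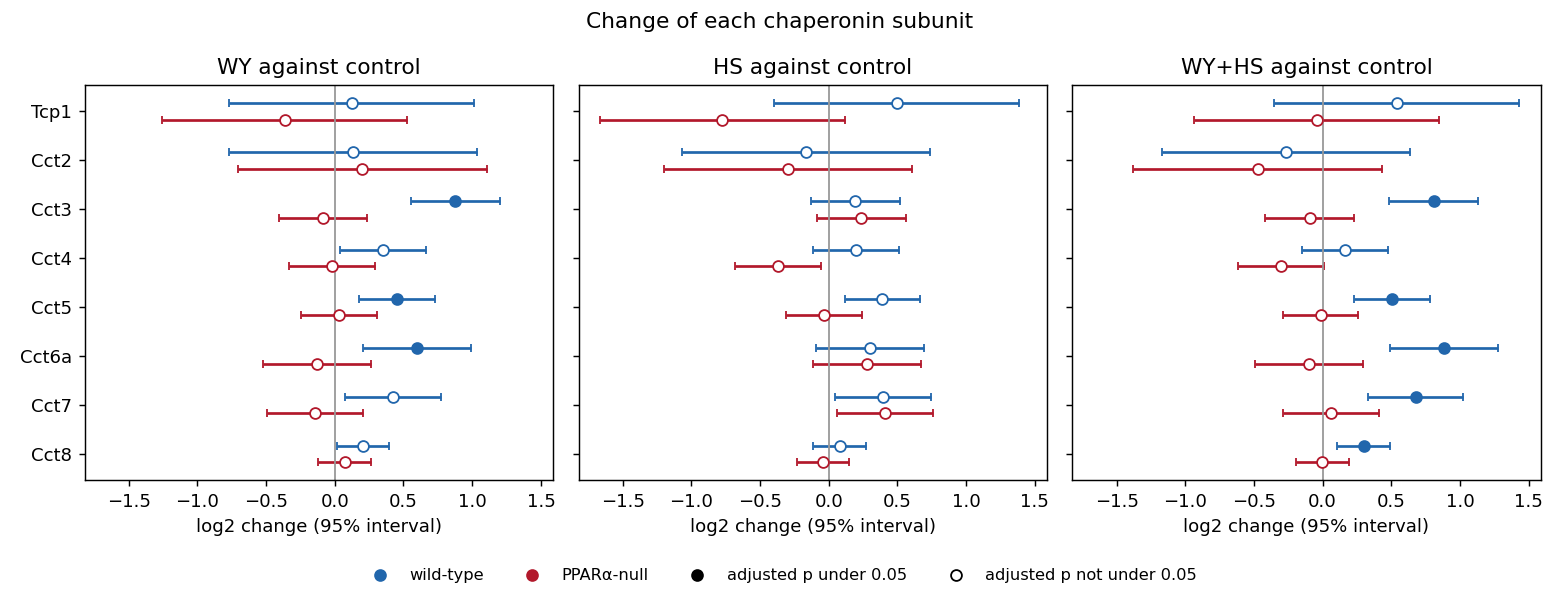
Log2 change of each of the 8 subunits with WY, HS or WY+HS against the control group of the same strain, wild-type blue and PPARα-null red; points are limma estimates, bars are 95% intervals and filled points have an adjusted p under 0.05 over all 12422 probe sets. Filled points are Cct3, Cct5 and Cct6a with WY and 5 subunits with WY+HS, all in wild-type mice.

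The difference between the strains was tested as an interaction. For WY alone Cct3 passed, its change being lower in null mice by -0.96 ± 0.22 on the log2 scale (adjusted p = 0.012), where 2.94% of all probe sets had a lower change in null mice. The _at probe set gave -1.10 ± 0.27 (adjusted p = 0.021) and the _s_at probe set -0.68 ± 0.29 (adjusted p = 0.25). Cct6a (-0.73 ± 0.26, adjusted p = 0.15), Cct7 (-0.57 ± 0.23, adjusted p = 0.23) and Cct5 (-0.42 ± 0.18, adjusted p = 0.27) did not pass alone. Averaged over the 2 heat conditions, 3 subunits passed, where 6.71% of probe sets had a lower change in null mice. These were Cct3 (-0.95 ± 0.15, adjusted p = 0.00033), Cct6a (-0.84 ± 0.19, adjusted p = 0.0047) and Cct7 (-0.60 ± 0.16, adjusted p = 0.020). In null mice Cct6a and Cct7 were lower with WY+HS than with HS, by -0.38 ± 0.19 and -0.35 ± 0.16. Neither passed there (adjusted p = 0.25 and 0.23 by limma), and both differences enter the average. The _s_at probe set of Cct3 gave -0.23 ± 0.20 and did not pass (adjusted p = 0.66). Cct7 did not pass with a common median, and Cct3 alone passed with arrays not scaled. For HS no subunit differed between strains past the threshold, where 1.62% of probe sets did, and 3, namely Tcp1, Cct4 and Cct5, had an unadjusted p under 0.05, with a lower change in null mice, a level reached by 12.7% of all probe sets.

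Controls of the strains were compared as well. All 8 subunits had a log2 difference above 0, from 0.15 to 0.54 with a median of 0.34. With arrays not scaled the median was 0.17 and Cct8 turned to below 0. None passed the test, which 0.845% of all probe sets passed in either direction, and unadjusted p was under 0.05 for 4 subunits and for 10.1% of probe sets. Cct5 read 493, 416 and 401 in null controls against 332, 357 and 320 in wild-type controls, a difference of 0.37 ± 0.13 (adjusted p = 0.25). Cct3, Cct4, Cct5 and Cct8 separated the 2 control groups, with null higher, which held for 6.72% of probe sets. On WY Cct3 was lower in null than in wild-type mice by -0.64 ± 0.15 (adjusted p = 0.0090), and on WY+HS by -0.57 ± 0.15 (adjusted p = 0.020), where 6.65% and 5.51% of probe sets were lower. The WY+HS difference did not pass with arrays not scaled, nor without WY+HS mouse 11 or 12 or null WY+HS mouse 23 or 24. After HS 0 of the 8 subunits differed between strains past the test, where 14.8% of all probe sets passed in either direction, and 3 subunits and 24.9% of all probe sets had an unadjusted p under 0.05. The probe sets of Cct3 went opposite ways there, with log2 differences of 0.37 ± 0.15 (_f_at, adjusted p = 0.13), -0.58 ± 0.19 (_at, adjusted p = 0.0502) and -1.22 ± 0.20 (_s_at, adjusted p = 0.00059). With arrays not scaled Cct4 passed and all 8 subunits were below 0, and 1 subunit passed without HS mouse 5 (Cct7) or null HS mouse 18 (Cct3). The wild-type control group enters both the WY comparison and this one.

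The mean log2 intensity of the 8 subunits summarised each mouse. It was lowest in wild-type controls, at 7.03 ± 0.07 (SD, n = 3 mice), and highest in wild-type WY+HS, at 7.48 ± 0.12. Between them lay null WY+HS (7.26 ± 0.03), wild-type HS (7.26 ± 0.15), null HS (7.31 ± 0.10), null WY (7.32 ± 0.10), null control (7.38 ± 0.06) and wild-type WY (7.42 ± 0.20). The 3 wild-type controls read 7.09, 7.04 and 6.95, below each of the other 21 mice, whose lowest value was 7.13. All other neighbours in this order had overlapping ranges. Among single subunits the wild-type control group was lowest for 5 of 8, namely Cct3, Cct5, Cct6a, Cct7 and Cct8. These means and ranks were taken with quantile normalization alone. How often other genes show such an order was not worked out, so it is given as a description.

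Subunits of the ring were also compared with each other, as the log2 intensity of a subunit minus the mean of the other 7 in the same mouse. A rise of this ratio in 1 subunit lowers each of the others by construction. In wild-type mice the Cct3 ratio was 0.09, -0.16 and -0.32 in control and -0.23, -0.18 and -0.12 with HS, against 0.25, 0.77 and 0.24 with WY and -0.07, 0.47 and 0.44 with WY+HS. All WY mice exceeded all controls, and 1 WY+HS mouse came within the range of the mice without WY. The difference, WY minus no WY over 6 and 6 mice, was 0.50, with p = 0.005 in an exact two-sided permutation test within heat condition, the smallest p this design allows, and 0.04 after Benjamini-Hochberg adjustment over the 8 ratios. With the _at probe set standing for Cct3 the difference was 0.79, also with an adjusted value of 0.04. Both versions include the dim Tcp1 and Cct2. With these left out, so that Cct3 was set against the other 5 brighter subunits, the ratio was -0.74, -0.92 and -1.06 in control, -1.06, -1.04 and -0.86 with HS, -0.51, -0.26 and -0.54 with WY and -0.90, -0.44 and -0.47 with WY+HS. All WY mice still exceeded all controls, but the difference of 0.43 no longer passed (exact permutation p = 0.01, 0.06 adjusted over 6 ratios).

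The Cct6a ratio was 0.33 higher with WY (exact permutation p = 0.025, adjusted 0.10). The ratios of Tcp1, Cct2, Cct4, Cct5, Cct7 and Cct8 differed by -0.33 to 0.05, with exact permutation p from 0.255 to 0.72. The Cct3 ratio lost its call without HS mouse 4, 5 or 6 or without WY mouse 8, when the adjusted value was 0.10 to 0.12 and the difference 0.42 to 0.52.

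**Figure D2:**
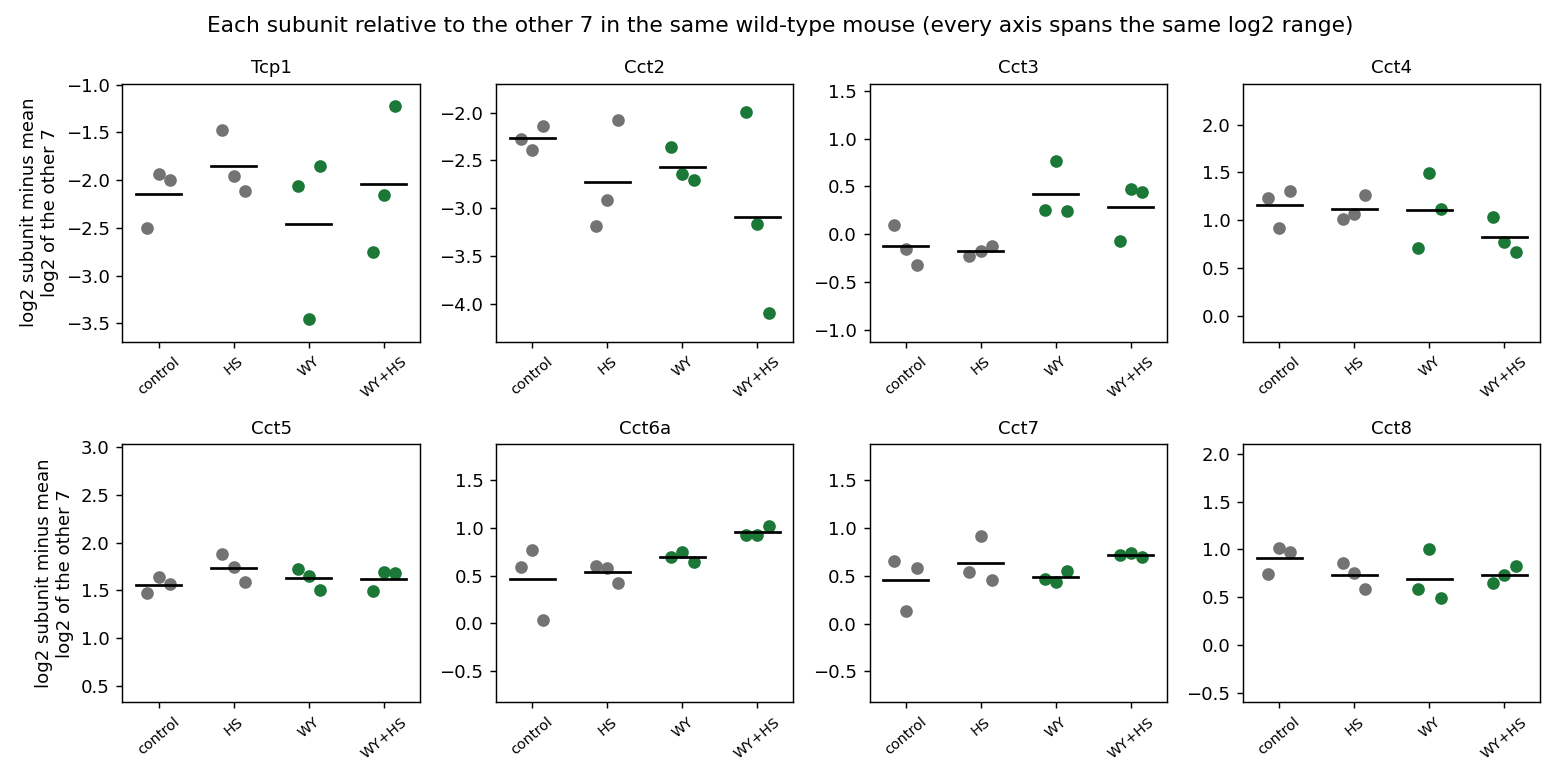
Log2 intensity of each subunit minus the mean log2 intensity of the other 7 in the same mouse, for the 12 wild-type mice, with groups without WY grey and with WY green, and a black line at the group mean; all axes span an equal log2 range but are centred separately. The Cct3 panel shows the WY groups above control and HS, except for 1 WY+HS mouse at -0.07.

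Across the 24 arrays each subunit was correlated with the mean of the other 7, as a description: Cct5 reached r = 0.70, Cct6a 0.62, Cct8 0.55, Cct7 0.52, Cct3 0.50 and Cct4 0.26, and the dim Tcp1 and Cct2 had 0.02 and -0.22. With group means removed the values were 0.40 for Cct5, 0.41 for Cct6a, 0.52 for Cct7, 0.18 for Cct8, 0.15 for Cct3 and -0.02 for Cct4. Over the 15 pairs of the 6 brighter subunits r ranged from 0.05 to 0.73 with a median of 0.47, and Cct6a with Cct7 was the closest pair. The points share arrays and their normalization.

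Of 3851 other genes above the floor in every mouse, Odc1 had the pattern most like the mean of the subunits, with r = 0.81 over 24 arrays and 0.75 with group means removed. It encodes ornithine decarboxylase, which makes polyamines, and it rose with WY in wild-type mice by 0.88 (adjusted p = 0.0082). The next 9, with r from 0.73 to 0.77, were Lamtor2 of the Ragulator complex, Samm50 of the mitochondrial outer membrane, the mitochondrial elongation factor Gfm1, the proteasome subunits Psmb4 and Psmd12, the mitochondrial ribosomal proteins Mrpl35 and Mrpl45, the lysosomal enzyme Hexa and the complex I subunit Ndufc1. Of these 10 genes 7 rose with WY in wild-type mice, where 5.59% of all probe sets rose. The genes were ranked by this likeness, so the values carry no test.

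Partners that hand proteins to the chaperonin were measured as well. Of 5 measured genes of prefoldin, which delivers nascent actin and tubulin, 0 passed with WY in wild-type mice, with log2 changes from -0.26 to 0.26, and Pfdn1 was at the floor in every mouse. In order of adjusted p they were Pfdn6 (-0.26, adjusted p = 0.11), Vbp1 (0.21, 0.63), Pfdn2 (0.24, 0.74), Pfdn5 (0.26, 0.96) and Pfdn1. Of 3 phosducin-like or related regulators 0 passed (Pdcl3, Pdc and Txndc9, log2 changes from -0.15 to 0.06). In null mice HS lowered Pfdn6 (log2 -0.48, adjusted p = 0.0060) and Pdcl3 (log2 -1.23, adjusted p = 0.012). Pdcl3 read 146, 136 and 60.5 in null controls and 47.2, 43.4 and 45.5 with HS, with no overlap.

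Tubulin and actin are the main clients. Of 12 measured tubulin genes 4 rose with WY and 6 with WY+HS, where 5.59% and 5.23% of probe sets rose, and 0 passed with WY in null mice. Tubb2a read 91.1, 136 and 59.7 in wild-type controls and 506, 327 and 424 with WY, with no overlap (log2 2.19 ± 0.56, adjusted p = 0.016). With HS alone wild-type mouse 5 read 851 for this gene and mice 4 and 6 read 179 and 131. Tubb3 (1.74 ± 0.50) and Tubb6 (1.25 ± 0.37) rose as well, and Tubb4b rose from a group with 2 of 3 mice at the floor (1.56 ± 0.38). Tubb5 (0.74, adjusted p = 0.081) and Tubg1 (-0.58, adjusted p = 0.15) did not pass. The probe sets of Tubb2a, Tubb3 and Tubb6 carry the suffix _f_at and may take up signal from related tubulin genes. Actb and Actg1, the cytosolic actins, gave -0.05 and 0.59 with WY, with neither past the test.

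Of 4 measured tubulin cofactors, which assemble the tubulin dimer after folding, Tbca rose with WY from 92.6, 122 and 118 to 182, 141 and 194 (0.63 ± 0.12, adjusted p = 0.0014), and Arl2 (1.05), Tbcb (0.23) and Tbce (0.06) did not pass. Of 13 WD repeat and other clients with a probe set, 2 were at the floor in every mouse and gave no measurement. Among the 13, 2 fell and 0 rose, namely the phosphatase Ppp4c (-0.89 ± 0.16, adjusted p = 0.00085) and the cyclin Ccne1 (-1.72 ± 0.44, adjusted p = 0.016), where 5.19% of probe sets fell. Next by adjusted p, Gnb1 (0.36), Mlst8 (1.65), Cdc20 (0.55) and Plk1 (-1.46) did not pass.

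The mitochondrial chaperonin is made of Hspd1 with its lid Hspe1. Hspd1 read 1600, 1667 and 1526 in wild-type controls, 2598, 2335 and 2838 with HS and 2639, 2558 and 2547 with WY, with no overlap. Both genes rose in wild-type mice with HS (Hspd1 0.69, Hspe1 1.06), with WY (0.69, 0.94) and with WY+HS (1.22, 1.77), and in null mice with HS (0.56, 0.81) and did not pass with WY. Of 25 genes of the cytosolic Hsp70 and Hsp90 machines with a probe set, 2 were at the floor in every mouse. Among the 25, 14 rose with WY+HS in wild-type mice, where 5.23% of all probe sets rose. With WY 3 rose and 1 fell, where 5.59% of all probe sets rose and 5.19% fell. The first 3 by adjusted p were Chordc1 (0.77), Cdc37 (-0.53) and Hspa8 (0.68). Hsf2 and Hsf4 were the heat shock factors read here, and neither passed with HS, WY or WY+HS in either strain. Hsf1 was not among the genes matched here, while the paper reports no change of Hsf1 in its own profiling.

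Of 31 proteasome genes 25 rose with WY in wild-type mice, where 5.59% of all probe sets rose and 5.19% fell. Their median log2 change was 0.65 beside 0.39 for the chaperonin, and first by adjusted p were Psma7 (1.02), Psma5 (0.75) and Psmd4 (1.47). Of 17 cell cycle genes 2 were at the floor in every mouse. Among the 17, 1 rose (Ccnb2, 0.81) and 1 fell (Mcm7, -1.20), near the shares of all probe sets, with Mki67 at 0.79 and not past the test. Of 11 genes of MYC and ribosome assembly 1 was at the floor in every mouse and 0 passed with WY. Bop1 (-0.69), Nop2 (0.38) and Nop56 (-0.41) were first by adjusted p. Of the non-hepatocyte markers with WY in wild-type mice, Kdr of 4 endothelial and Cd79a of 5 lymphocyte markers fell, and 0 of 5 Kupffer cell, 5 stellate cell, 3 bile duct, 4 muscle and 3 germ cell markers passed. The summed endothelial markers were 210 to 263 in control and 120 to 151 with WY, the lymphocyte markers 176 to 221 and 123 to 130, with Cd3e, Cd3g and Ptprc at the floor in all mice. Krt7 and Epcam of the bile duct markers were at the floor in all mice and gave no measurement. The bile duct sum was 47.2 in every control and WY wild-type mouse, so these markers could not show a change. Of the hepatocyte markers Ttr, Cps1 and Serpina1c fell and none rose, where 5.19% of all probe sets fell. The part of these cell types in the result was not tested.

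**Figure D3:**
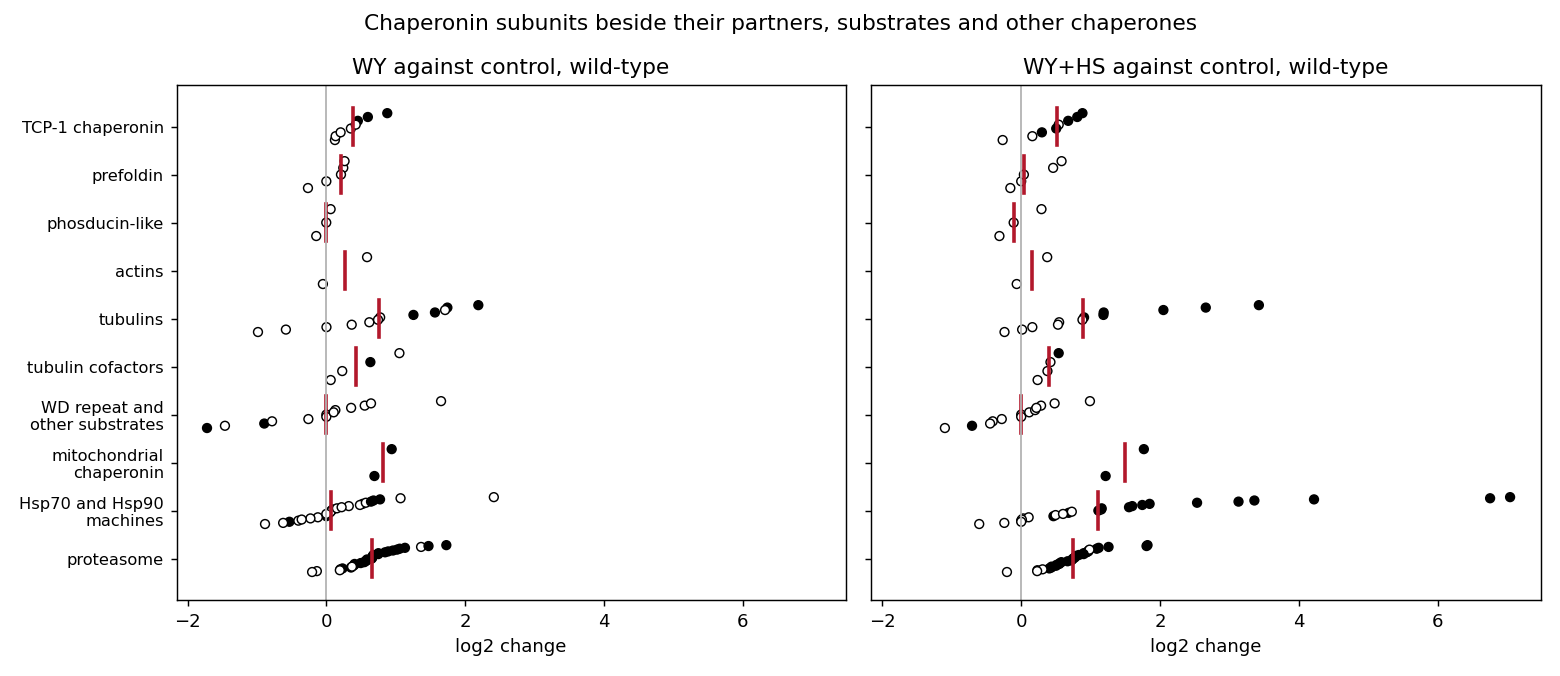
Log2 change (limma) of each measured gene of 10 groups with WY (left) and WY+HS (right) against control in wild-type mice, with 1 point per gene, filled where the adjusted p over all probe sets is under 0.05, and a red line at the group's median; the 2 points farthest right under WY+HS are Hspa1a, at the floor in 17 of 24 mice, and Hspa1b. The chaperonin subunits range from 0.12 to 0.88 with WY (median 0.39) and from -0.27 to 0.88 with WY+HS (median 0.52). With WY the tubulins spread further, from -0.98 to 2.19, and the prefoldin genes less, from -0.26 to 0.26.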

How the data were processed

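Whole liver RNA of 24 mice, 1 mouse per Affymetrix U74Av2 array and 3 mice per group, was used. The authors deposited 1 table of intensity values per probe set on a linear scale, in which 24.1% of values were at or below 0; per the study's methods the arrays were scanned with GeneChip Operating Software and analysed in Rosetta Resolver, while how the deposited intensities were scaled was not stated in the sources used here. In all, 66 rows without values were left out. Intensities were quantile normalized, raised to a floor (the size of their 10th percentile, 15.7) and put on the log2 scale. Probe sets were named from the platform annotation: 10833 had 1 symbol, 396 several and 1193 none.

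One mean per group was fitted over all arrays with limma 3.58.1 in R 4.3.3 (lmFit, eBayes; 16 residual degrees of freedom), contrasts were taken, and p-values were adjusted by Benjamini-Hochberg over the 12422 probe sets of each contrast at a threshold of 0.05. The methods' test, a 1-way analysis of variance with a Scheffe test, was an alternative. It was run on the values normalized here and does not repeat the paper's own processing. Ring ratios were tested by exact permutation. The fitting was tested on simulated data. Alternatives were other scalings, floors, weights, moderation, a filter on dim probe sets, the compared arrays alone and each mouse left out; arrays not scaled, Cct3 by its _at probe set, ring ratios without Tcp1 and Cct2, and scaling and left-out mice in 11 further comparisons were chosen after seeing the data. Members and gene lists were chosen with earlier results of these data known. Named were all member probe sets, up to 6 genes of each list of chaperonin partners or clients and up to 3 of other lists by adjusted p with WY in wild-type mice, and the 10 genes most like the subunit mean; genes named for HS in null mice and the outermost points of the plot of gene groups were chosen after their values were seen. Cell type markers were summed as normalized intensity.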

Additional observations from a re-analysis of the deposited data

Results flagged for a closer look

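The response of 3 subunits to WY differed between wild-type and PPARα-null mice by the interaction term in limma, with adjusted p under 0.05 over all probe sets. For WY at room temperature the change of Cct3 was lower in null mice by -0.96 (_f_at probe set) and by -1.10 (_at probe set) on the log2 scale. Averaged over room temperature and HS, it was lower by -0.95 (_f_at probe set) and -0.85 (_at probe set) for Cct3, by -0.84 for Cct6a and by -0.60 for Cct7. The uncertain _s_at probe set of Cct3 did not pass, at -0.68 for WY at room temperature and -0.23 in the average. These values share their arrays and are not independent of each other. For Cct6a and Cct7 the average takes in log2 differences of -0.38 and -0.35 between WY+HS and HS in null mice.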

How the results depend on the processing

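The call of Cct3 with WY in wild-type mice held in all alternatives run. With a common median, calls were 1 with WY, 3 with WY+HS and 2 with WY averaged over HS in wild-type mice, and 1 with HS in null mice (Cct4). The methods' test called 1, 2 and 2 in those 3 wild-type comparisons, the compared arrays alone 1, 1 (Cct5) and 2, trend and robust moderation 2 in the average, and array weights 3 in the WY by genotype interaction. With arrays not scaled WY+HS gave 0 and the average 1. That setting moved the median of genes above the floor by 0.43 (HS), 0.48 (WY), -0.20 (WY+HS) and -0.077 (average) in wild-type mice, 0.17 (WY) in null mice, and by -0.30 (WY) and -0.38 (HS) in the interactions with genotype, and made 90.0% rather than 51.8% of the WY calls in wild-type mice, 29.6% rather than 49.3% of those with WY+HS and 15.1% rather than 42.7% of those in the WY by genotype interaction higher. In the comparisons first run under other scalings after seeing the data, arrays not scaled gave for wild-type WY+HS mice 0 against HS and 2 against WY, 5 for WY by HS, 1 for null against wild-type after HS, 0 on WY+HS, and 1 for WY by genotype averaged over HS, the median moving by -0.63, -0.66, -1.10, -0.56, -0.036 and 0.11. In the average Cct7 also missed the threshold with the floor at the 5th percentile (adjusted p = 0.053) and Cct8 with dim probe sets filtered out (0.061).

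Leaving out 1 mouse at a time, calls ranged from 1 to 3 with WY, 3 to 5 with WY+HS, 2 to 5 in the average (2 without control mouse 3, HS mouse 6 or WY+HS mouse 12, and 3 without control mouse 1 or 2, HS mouse 4, WY mouse 7 or 9 or WY+HS mouse 10 or 11) and 1 to 2 in the WY by genotype interaction (2 without null control mouse 14). Where leaving out mice was decided on after seeing the data, they were 0 to 3 for WY+HS against HS in wild-type and 0 to 1 in null mice, 3 to 3 for WY by genotype averaged over HS, and for null against wild-type 0 to 1 after HS, 1 to 1 on WY and 0 to 1 on WY+HS. In the other comparisons run they were 0 to 0. The ring ratio ranged over 0.42 to 0.59 (Cct3), 0.22 to 0.40 (Cct6a), -0.064 to 0.012 (Cct5), -0.026 to 0.12 (Cct7), -0.46 to -0.0024 (Tcp1), -0.60 to -0.076 (Cct2), -0.27 to -0.069 (Cct4) and -0.19 to -0.056 (Cct8). Without Tcp1 and Cct2 it was 0.43 for Cct3, which no longer passed, and -0.045 for Cct7, a turned sign.

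Log2 values turned sign under the 2 other scalings only where they had not passed the test. With a common median these included Cct5 (-0.071) and Cct8 (-0.0016) for WY in null mice, Cct5 (0.014) and Cct8 (0.030) for WY+HS in null mice, and Cct3 (-0.028) and Cct7 (-0.11) for HS by genotype. Cct2 turned with the floor at the 5th percentile (HS 0.074, WY+HS 0.23), with the floor at the 20th (average -0.0048) and with array weights (average -0.062, HS by genotype 0.081), and Cct8 with array weights (WY+HS in null mice 0.0066). With arrays not scaled these included Cct2 (HS 0.30, average -0.0085, WY by genotype -0.25), Cct4 (WY+HS -0.027), Cct3, Cct4, Cct6a and Cct7 for WY in null mice (0.090, 0.14, 0.024 and 0.023), and Cct3 and Cct7 for HS by genotype (-0.36 and -0.44), beside 5 subunits each for WY+HS against HS and against WY in wild-type mice and for null against wild-type after HS. By its _at probe set Cct3 was -0.17 (HS), 0.089 (WY) and 0.11 (WY+HS) in null mice and -0.79 for HS by genotype. Leaving out 1 mouse also turned signs of values that had not passed, with ranges for HS in wild-type mice Cct2 -0.39 to 0.055 and Cct8 -0.013 to 0.21, for WY Tcp1 -0.22 to 0.67, for WY+HS Cct2 -0.77 to 0.13, for the average Cct2 -0.23 to 0.22 and Tcp1 -0.12 to 0.36, for HS in null mice Cct2 -0.69 to 0.057 and Cct5 -0.092 to 0.056, for WY Cct2 -0.043 to 0.49, Cct4 -0.086 to 0.042, Cct5 -0.093 to 0.12 and Cct6a -0.31 to 0.014, for WY+HS Cct5 -0.073 to 0.075, Cct6a -0.28 to 0.044, Cct7 -0.045 to 0.18, Cct8 -0.042 to 0.020 and Tcp1 -0.23 to 0.15, for WY by genotype Cct2 -0.18 to 0.36, and for HS by genotype Cct2 -0.53 to 0.22, Cct3 -0.097 to 0.22, Cct6a -0.20 to 0.21 and Cct7 -0.13 to 0.22. The cause was not tested. No paired analysis was possible because no mouse gave more than 1 array and no replicate number is shared between groups. Signals of Tcp1 and Cct2 near the floor limit what can be said of them.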
